A study of Mus musculus with 26 samples.

Results

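Mitochondrial fatty acid oxidation was followed through the messenger RNAs of 31 genes in mouse brown adipose tissue, the fat depot that burns fuel to make heat. The genes were taken by symbol from a deposited expression table of 48432 rows, as those for acyl-CoA activation, the carnitine shuttle, the mitochondrial beta-oxidation cycle and the electron transfer flavoproteins. All 31 were in the table, on 1 row each, and none was listed at 0 in any library. The rule goes by gene name and function and uses no measured value, although earlier results of these data were known when it was written. The tissue came from mice aged 2 months in 26 libraries, 13 of each genotype, and the study asked how loss of the transcription factor KLF15 in brown fat alters the transcriptome in cold and fasting. Every mouse carried floxed Klf15 on both alleles (KLF15 flox/flox). The FF mice had no other allele named, and the BKO mice (Ucp1-Cre/+;K15F/F) also carried Cre driven by the promoter of Ucp1, the uncoupling protein of brown adipocytes, so the deletion is limited to cells that have used this promoter. No group of Cre carriers without floxed alleles is among the 8 groups. Each genotype was sampled in 4 conditions (fed or fasted at room temperature, a cold challenge, and cold combined with fasting), with 4 libraries per genotype in the cold challenge and 3 in each other group. The labels give no temperature or duration, and they give a separate mouse number for each library.

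Long-chain fatty acids are first joined to coenzyme A by acyl-CoA synthetases. The carnitine palmitoyltransferases then pass the acyl group across the mitochondrial membranes as acylcarnitine, and inside the matrix the chain is shortened by repeated rounds of dehydrogenation, hydration, a further dehydrogenation and thiolysis. Electrons from the acyl-CoA dehydrogenases reach the respiratory chain through the electron transfer flavoprotein. In brown fat this pathway supplies much of the fuel for uncoupled respiration, and nuclear receptors of the PPAR and ERR families with the coactivator PGC-1alpha are known regulators of its genes.

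Values are FPKM, which correct the fragments of a gene for its length and for the library's total, so levels can be set side by side between genes. An FPKM keeps no record of the reads behind it, so sequencing depth is unknown here and the errors given rest on the spread between libraries. An SD is that of its group, whereas an SE comes from a spread pooled over the 8 groups. The FPKM sum ranged from 388107 to 501068 per library. Klf15 itself stood at 2.12 to 8.92 FPKM in the BKO libraries and at 9.03 to 30.6 FPKM in the FF libraries, and the BKO mean was highest in fasting, at 8.56 ± 0.539 FPKM (SD, n = 3). None of the 14 brown adipocyte markers examined was at 0 in all libraries, and 13 had a value in the cold challenge of either genotype. The 9 white adipocyte markers summed to 22.4 to 85.0 FPKM per library, with 1 of them, Tcf21, at 0 in all libraries. The labels number the libraries, and 8 of them, numbered 1 to 8, are all from FF mice: all 3 of fasting, 2 of the fed and 3 of the cold group. The other 18, numbered 15 to 32, hold every BKO library. Genotype in fasting therefore cannot be told apart from the library number block. In bulk tissue, fewer cells of a type and less RNA per cell cannot be told apart.

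Promoter sequence is shown for the genes whose levels moved most or against the rest, from the RefSeq promoter table on GRCm38.p6, the build family of the deposited values. Acsl5 had the largest range between groups, Cpt2 the largest difference between genotypes in fasting, and Hsd17b10 rose in fasting while most of the genes did not. Acadm is the gene whose window held the extended ERR site. Each line is the 250 bases before the annotated start, read 5′ to 3′ on the gene's strand, and capitals mark a match to a searched motif on either strand.
Acsl5 (chr19:55253119-55253368, plus strand): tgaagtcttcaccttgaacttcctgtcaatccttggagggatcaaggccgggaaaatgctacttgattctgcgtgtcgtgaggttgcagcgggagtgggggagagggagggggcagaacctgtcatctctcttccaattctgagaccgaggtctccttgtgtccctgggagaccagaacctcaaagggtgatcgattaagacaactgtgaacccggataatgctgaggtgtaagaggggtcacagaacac
Cpt2 (chr4:107923590-107923839, minus strand): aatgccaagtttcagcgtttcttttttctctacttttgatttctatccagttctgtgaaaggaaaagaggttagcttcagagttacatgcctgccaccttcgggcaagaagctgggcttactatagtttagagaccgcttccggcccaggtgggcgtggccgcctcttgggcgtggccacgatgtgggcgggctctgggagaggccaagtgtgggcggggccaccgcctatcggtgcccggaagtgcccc
Hsd17b10 (chrX:152001646-152001895, plus strand): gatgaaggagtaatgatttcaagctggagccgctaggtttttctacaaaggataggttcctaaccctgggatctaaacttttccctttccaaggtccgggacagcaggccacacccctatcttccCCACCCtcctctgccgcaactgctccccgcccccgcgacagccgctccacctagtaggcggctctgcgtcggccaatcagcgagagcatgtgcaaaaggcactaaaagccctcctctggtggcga
Acadm (chr3:153944644-153944893, minus strand): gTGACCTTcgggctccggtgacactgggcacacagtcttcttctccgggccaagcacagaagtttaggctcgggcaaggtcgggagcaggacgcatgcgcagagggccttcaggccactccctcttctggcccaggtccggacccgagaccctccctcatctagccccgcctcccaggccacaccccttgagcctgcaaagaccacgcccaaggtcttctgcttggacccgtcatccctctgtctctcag
Hadha and Hadhb, which encode both chains of the mitochondrial trifunctional protein, lie head to head on chromosome 5. Between their ends in the GENCODE M21 annotation there are 85 bases. That stretch is shown on the plus strand because both genes moved together in cold.
Hadha-Hadhb (chr5:30155163-30155247, plus strand): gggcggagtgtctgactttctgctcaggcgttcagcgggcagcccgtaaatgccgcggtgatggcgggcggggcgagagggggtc
A window of 300 bases, from 250 before to 50 after the start, was available for 26 of the 31 genes, with 27 windows because Acsl1 has a pair of starts. The nuclear receptor hexamer AGGTCA was in 4 of the 27 windows, against 16.3% of 32851 mouse windows. Its extended form AAGGTCA, which overlaps it, was in 1 of 27, against 4.72%. The direct repeat AGGTCANAGGTCA, which contains the hexamer, with at most 2 mismatches was in 2 of 27, those of Echs1 and Etfa, against 3.86%. The KLF-type motif CCACCC was in 11 of 27, against 31.5%. The Hadha and Hadhb windows, both among these 11, share 228 bases and hold the same site, which lies outside the 85 bases shown. The windows follow RefSeq starts, which can differ from GENCODE M21. The Acsl5 window lies inside the GENCODE gene, which starts at chr19:55251938. The windows of Acsl5 and Cpt2 held none of the searched motifs, which says only that these letters are not there.

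As a set, the genes spanned a wide range of levels, from 3.36 to 1630.0 FPKM averaged over the 8 groups. The summed FPKM of the 31 was 13499 ± 430.4 in fed FF libraries and 15318 ± 809 in FF cold libraries (mean ± SD, n = 3 and n = 4), and it was lowest in fasted FF mice, at 12123 ± 732. Fasted BKO mice had 14701 ± 784. Averaged over the 8 groups, the most abundant were Acadl at 1630.0 FPKM, Acaa2 at 1472 FPKM, Acadm at 1325 FPKM and Acadvl at 1301 FPKM, which encode the long-chain dehydrogenase, the medium-chain thiolase, the medium-chain dehydrogenase and the very long-chain dehydrogenase. The lowest was Cpt1a, the liver form of carnitine palmitoyltransferase I, at 3.36 FPKM, whereas the muscle form Cpt1b stood at 435 FPKM. Cpt1b thus made up 99.1% ± 0.127 of the sum of both forms in fasted FF libraries and 99.5% ± 0.0428 in fasted BKO libraries (mean ± SD, n = 3 each). In 19 of the 31 genes the group with the lowest mean was fasted FF, as the heat map of all libraries shows.

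**Figure D1:**
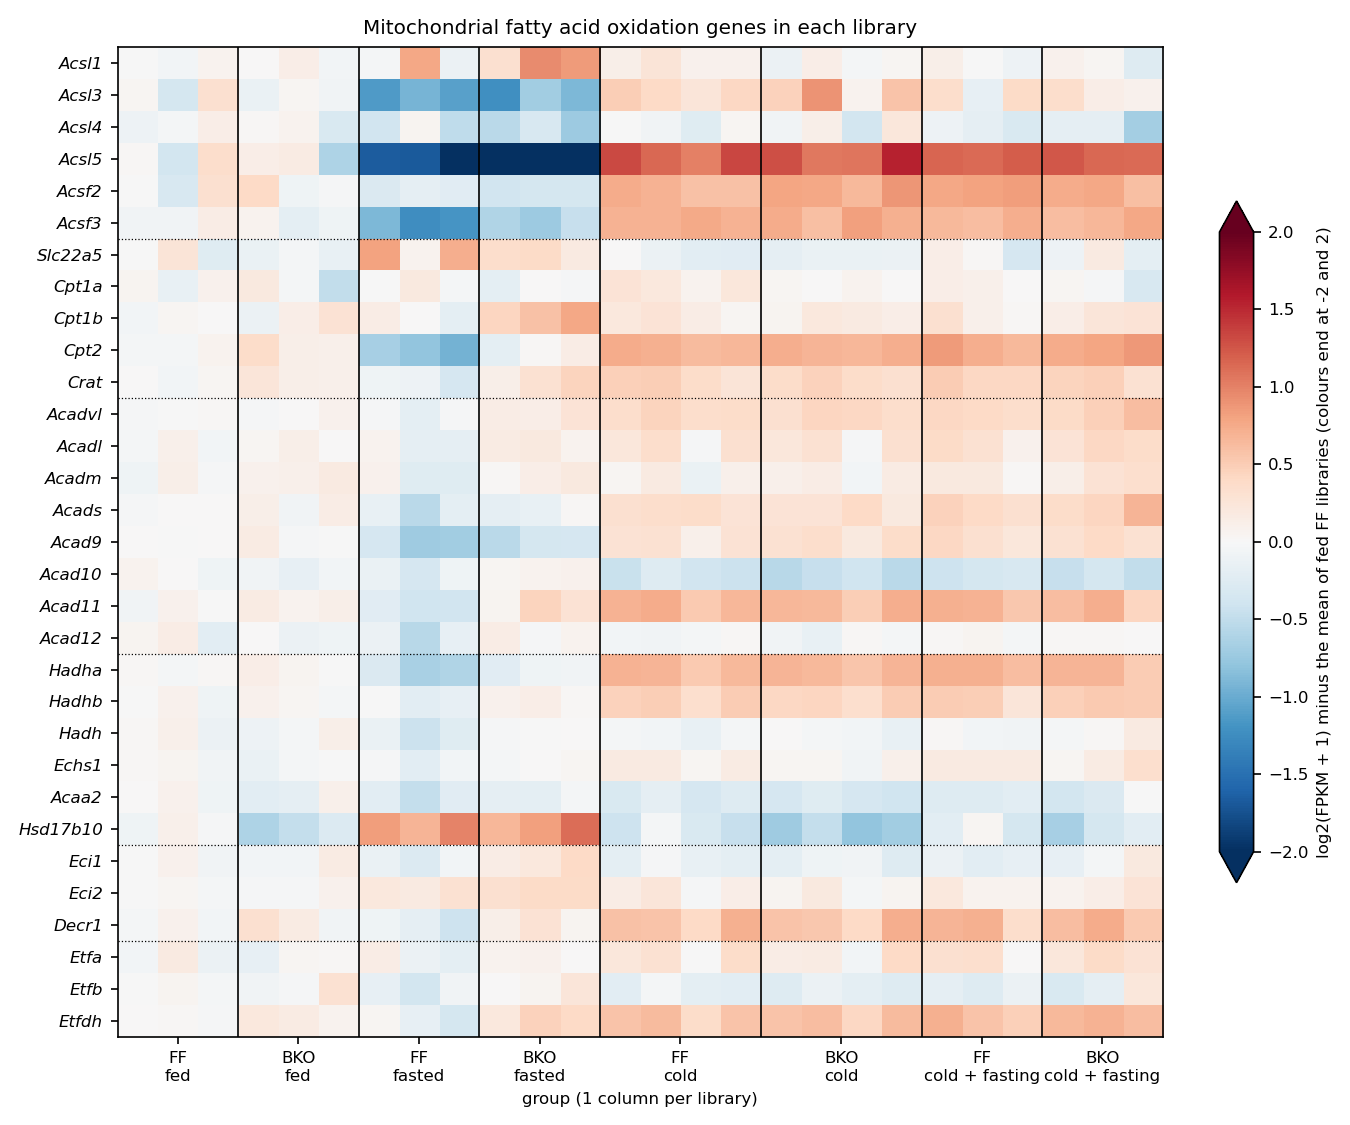
Each row is 1 of the 31 genes, ordered by role with dotted lines between roles, and each column 1 of the 26 libraries. Colour is log2(FPKM + 1) minus the mean of the 3 fed FF libraries, with colours ending at -2 and 2. Acsl5 is darkest blue in fasting and red in cold, Hsd17b10 is red in fasting, and Acad10 is blue in all cold libraries.

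The spread of the 8 group means differed between genes. The highest group mean of Acsl5 was 14.2 times its lowest. For Acsf3 this ratio was 3.62, for Acsl3 3.26, for Cpt2 3.02, for Hsd17b10 2.93, for Acsf2 2.29 and for Hadha 2.28. It was 1.22 for Echs1, 1.25 for Hadh, 1.30 for Acadm and 1.28 for Etfa, which encode the short-chain enoyl-CoA hydratase, the hydroxyacyl-CoA dehydrogenase, the medium-chain dehydrogenase and the alpha subunit of the flavoprotein. The activation genes held 4 of the 7 largest ratios. These ratios rest on means of 3 or 4 libraries and carry no test.

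In the cold challenge, 13 of the 31 genes were higher and 2 were lower than in fed mice at room temperature in the FF genotype, by limma on log2(FPKM + 1) with Benjamini-Hochberg adjustment over all genes and a threshold of 0.05. Over all 12703 genes tested, 13.3% were called higher and 10.3% lower in this comparison. The members' median log2 difference was 0.22, against a median of 0.00 over all genes. In BKO mice 12 were higher and 1 was lower, where 9.71% of all genes were higher and 6.49% lower, and the members' median was 0.16. The 11 genes higher in both genotypes were Acsl5, Acsf2, Acsf3, Cpt2, Acadvl, Acad9, Acad11, Hadha, Hadhb, Decr1 and Etfdh, and Acad10 was lower in both. A test of the difference between the genotypes' cold responses called 0 of the 31 in limma, where 0.00787% of all genes were called. At an unadjusted p under 0.05 there were 0 members and 433 of the 12703 genes tested. The same test for cold plus fasting also called 0 of the 31 in limma, where 0.00787% of all genes were called. Here 0 members and 482 of the 12703 genes had an unadjusted p under 0.05. The members' differences for cold plus fasting ranged from -0.20 to 0.23 on the log2 scale. The differences in cold response ranged from -0.18 to 0.17 on the log2 scale, with standard errors from 0.087 to 0.29.

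Among the activation genes, Acsl5, which encodes a long-chain acyl-CoA synthetase found at mitochondria and the endoplasmic reticulum, moved most. It was at 223, 169 and 279 FPKM in the fed FF libraries and at 552, 489, 442 and 557 FPKM in the cold ones. The fed BKO libraries had 241, 247 and 142 FPKM and the cold ones 538, 458, 460.4 and 636 FPKM. Every cold library of either genotype was above every fed library. The log2 difference was 1.21 ± 0.21 (SE; adjusted p = 0.000225) in FF mice and 1.34 ± 0.21 (SE; adjusted p = 0.000119) in BKO mice. Acsl1, the most abundant long-chain synthetase, did not pass the test in either genotype, with log2 differences of 0.14 ± 0.16 and -0.04 ± 0.16. Acsl5 made up 25.01% ± 3.75 of the summed FPKM of Acsl1, Acsl3, Acsl4 and Acsl5 in fed FF libraries and 41.03% ± 3.14 in cold ones. In BKO libraries the share was 23.4% ± 4.5 fed and 43.7% ± 4.5 in cold. Acsl3 passed in BKO mice, with 0.55 ± 0.17 (SE; adjusted p = 0.0305), and stood at 0.38 ± 0.17 in FF mice. The BKO call ended without any 1 of 6 libraries, 3 of the fed and 3 of the cold group, with adjusted p up to 0.106.

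Acsf2 and Acsf3 encode mitochondrial acyl-CoA synthetases, of which ACSF3 is a malonyl-CoA synthetase. Acsf3 was at 66.4, 66.4 and 78.01 FPKM in fed FF libraries and at 114, 114, 119 and 114 FPKM in cold ones, and the groups did not overlap. In BKO mice the values were 73.4, 60.8 and 66.2 FPKM fed and 117, 107, 125 and 116 FPKM in cold, again without overlap. The log2 difference was 0.71 ± 0.087 (SE; adjusted p = 4.97e-06) in FF and 0.79 ± 0.087 (SE; adjusted p = 1.77e-06) in BKO mice. Acsf2 rose by 0.65 ± 0.11 (SE; adjusted p = 0.000264) and by 0.68 ± 0.11 (SE; adjusted p = 0.000259) on the same scale.

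In the carnitine shuttle, the gene called in both genotypes was Cpt2, the inner membrane transferase that returns acylcarnitine to acyl-CoA in the matrix. Fed FF libraries had 248, 248 and 268 FPKM and cold ones 425, 417, 394 and 405 FPKM. Fed BKO libraries had 329, 276 and 273 FPKM and cold ones 421, 408, 402 and 424 FPKM. All 8 cold libraries exceeded all 6 fed ones. The log2 difference was 0.69 ± 0.082 (SE; adjusted p = 3.57e-06) in FF and 0.50 ± 0.082 (SE; adjusted p = 0.000198) in BKO mice. Cpt1b, the outer membrane transferase generally taken as the entry control, gave 0.17 ± 0.099 in FF and 0.04 ± 0.099 in BKO mice and was not called. Crat, the carnitine acetyltransferase of the matrix, was called in FF mice at 0.40 ± 0.079 (SE; adjusted p = 0.00094) and stood at 0.22 ± 0.079 in BKO mice. The carnitine transporter Slc22a5 and Cpt1a were not called in either genotype.

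Of the acyl-CoA dehydrogenases, Acadvl was at 1089, 1102 and 1121 FPKM in fed FF libraries and at 1409, 1498, 1411 and 1423 FPKM in cold ones. It acts on the longest chains at the inner membrane. The BKO values were 1088, 1108 and 1174 FPKM fed and 1386, 1485, 1476 and 1412 FPKM in cold. Cold and fed values did not overlap in either genotype, and the log2 differences were 0.38 ± 0.061 (SE; adjusted p = 0.000123) and 0.36 ± 0.061 (SE; adjusted p = 0.000303). Acad11, a dehydrogenase of very long chains, rose by 0.66 ± 0.089 (SE; adjusted p = 1.73e-05) in FF and by 0.52 ± 0.089 (SE; adjusted p = 0.000303) in BKO mice. Acad9 was called at 0.25 ± 0.086 (SE; adjusted p = 0.0382) and 0.26 ± 0.086 (SE; adjusted p = 0.0401), and these calls ended without any 1 of 6 libraries in FF and 5 in BKO mice, with adjusted p up to 0.107 and 0.155. Acads, the short-chain dehydrogenase, was called in FF mice at 0.33 ± 0.089 (SE; adjusted p = 0.0103) and stood at 0.22 ± 0.089 in BKO mice. Acadm and Acadl, also among the most abundant, were not called, and Acadm differed by 0.05 ± 0.090 and -0.04 ± 0.090.

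Acad10 was the member that was lower in cold in both genotypes. Fed FF libraries had 17.9, 17.2 and 16.1 FPKM and cold ones 12.2, 14.04, 12.8 and 12.5 FPKM. Fed BKO libraries had 16.2, 15.1 and 16.4 FPKM and cold ones 11.3, 12.1, 12.7 and 11.5 FPKM. The groups did not overlap in either genotype, and the log2 differences were -0.38 ± 0.069 (SE; adjusted p = 0.000394) and -0.39 ± 0.069 (SE; adjusted p = 0.000449). Its neighbour on chromosome 5, Acad12, which is a related gene, was not called in cold, with -0.03 ± 0.092 and 0.01 ± 0.092. How fragments shared by related genes were assigned is not given in the sources used here.

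Hadha and Hadhb, whose products catalyse the last 3 steps of the long-chain cycle as 1 complex, rose together. Hadha was at 555, 529.7 and 553 FPKM in fed FF libraries and at 887, 871, 785 and 859 FPKM in cold ones. In BKO mice it was at 596, 565 and 544 FPKM fed and at 875, 859, 801 and 872 FPKM in cold. Its log2 differences were 0.64 ± 0.076 (SE; adjusted p = 3.41e-06) and 0.58 ± 0.076 (SE; adjusted p = 1.56e-05). Hadhb rose by 0.45 ± 0.072 (SE; adjusted p = 0.000104) and 0.40 ± 0.072 (SE; adjusted p = 0.000555). The short-chain enzymes of the same steps, Echs1 and Hadh, were not called. Acaa2, the matrix thiolase for shorter chains, was lower in FF mice, and it is named here after its values were seen, with -0.27 ± 0.089 (SE; adjusted p = 0.0286) in FF and -0.23 ± 0.089 in BKO mice. The FF call ended without any 1 of 5 libraries, with adjusted p up to 0.134.

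The remaining rises in cold were in Decr1, the dienoyl-CoA reductase that handles unsaturated chains, and Etfdh, the oxidoreductase that passes electrons from the flavoprotein to ubiquinone. Etfdh was at 328, 332 and 321 FPKM in fed FF libraries and at 487, 508, 423 and 486 FPKM in cold ones. In BKO mice it was at 379, 366 and 342 FPKM fed and at 487, 504, 434 and 508 FPKM in cold. The log2 differences were 0.54 ± 0.087 (SE; adjusted p = 0.000119) and 0.41 ± 0.087 (SE; adjusted p = 0.00201), whereas the flavoprotein subunits Etfa and Etfb were not called. Decr1 gave 0.56 ± 0.11 (SE; adjusted p = 0.000688) in FF and 0.43 ± 0.11 (SE; adjusted p = 0.00869) in BKO mice, and the latter call ended without BKO fed replicate 3 (adjusted p = 0.0721).

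All 5 erythroid markers examined, globins and Alas2, were also higher in cold in FF mice and 4 of 5 in BKO mice. Their summed level was 120.4 to 188 FPKM in fed FF libraries and 342 to 601 FPKM in cold ones, and 174 to 471 FPKM and 415 to 701 FPKM in BKO libraries. Of 6 endothelial markers, 4 were higher and 1 lower in FF mice, with sums of 151 to 153 FPKM fed and 178 to 216 FPKM in cold. Of 8 macrophage markers, 4 were lower, with sums of 85.5 to 100.3 FPKM and 70.6 to 81.1 FPKM. Of the 13 brown adipocyte markers with a value in cold FF mice, 3 were higher and 2 lower. The 1 lymphocyte marker tested, Ighm, was higher in FF mice and was not called in BKO mice. In BKO mice 3 endothelial markers were higher in cold and 0 lower, and 2 macrophage markers were lower. Brown adipocyte markers there had 2 higher and 1 lower. Over all genes, 13.3% were higher and 10.3% lower in FF mice, and 9.71% and 6.49% in BKO mice. The part of these shifts in the cold results was not tested. With quantile normalization the counts became 13 higher and 5 lower in FF mice, where 25.7% of all genes were called in either direction, and 11 higher and 4 lower in BKO mice, where 17.01% were. Within the libraries numbered 1 to 8, an alternative added after the data were seen, FF mice had 12 higher and 1 lower, where 15.1% of all genes were called. With the single fed and single cold FF library of the later block it was 1 higher and 0 lower, where 0.942% were called.

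**Figure D2:**
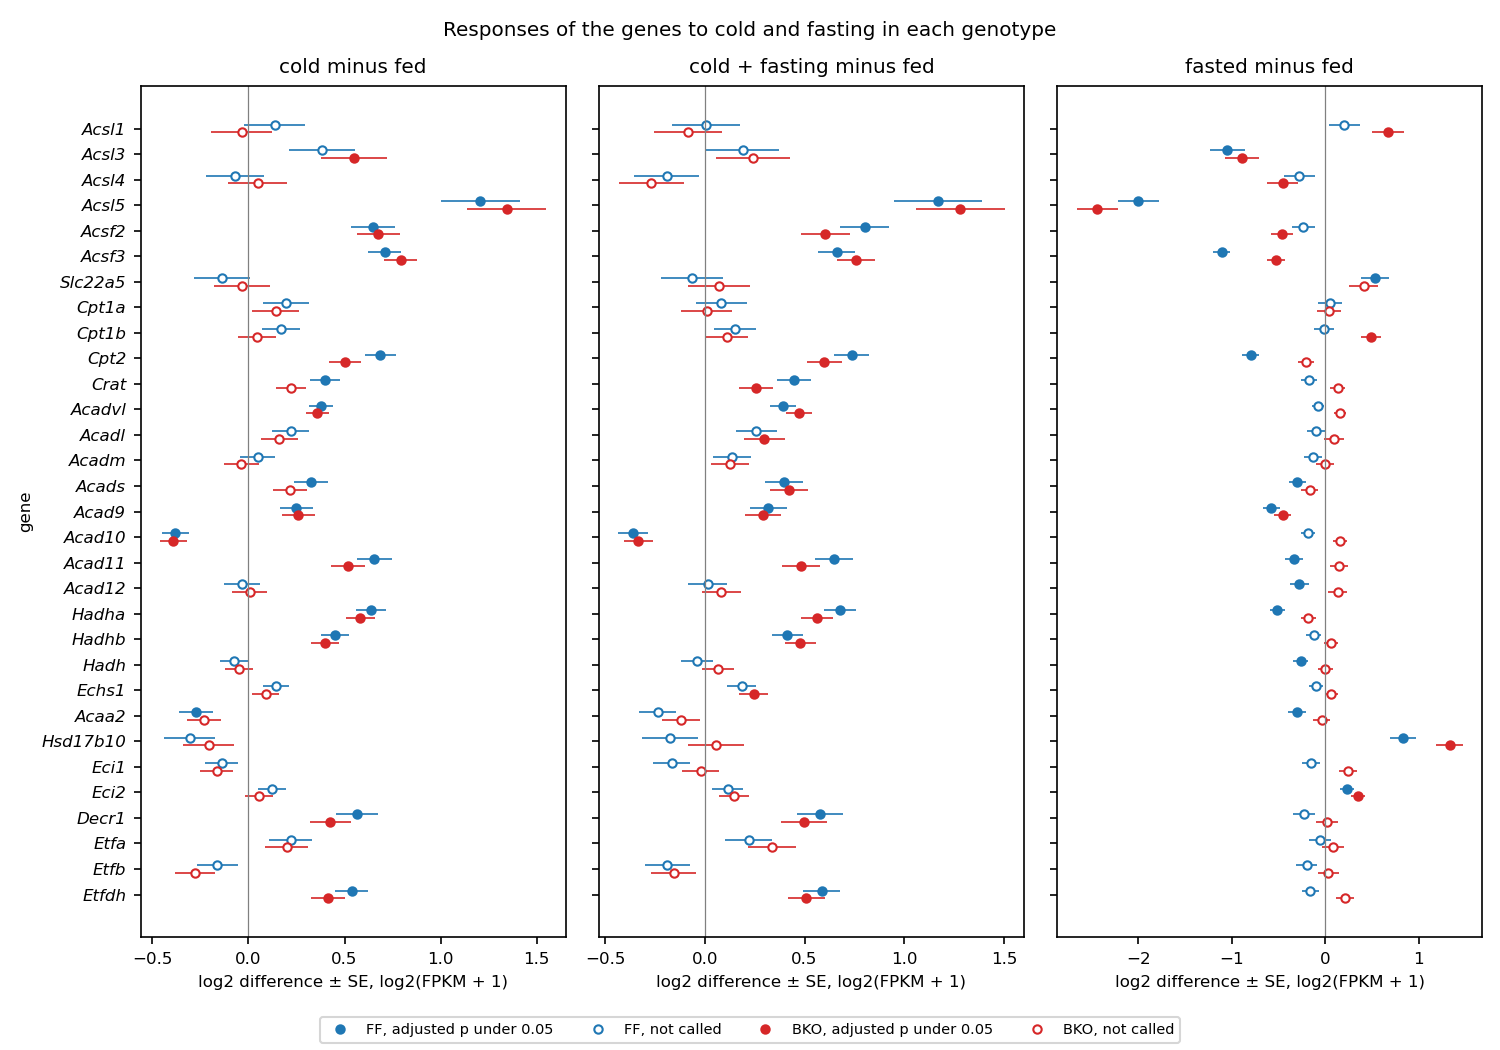
Log2 differences of the 31 genes on the log2(FPKM + 1) scale with standard errors as bars, for cold, cold plus fasting and fasting, each minus fed, in FF (blue) and BKO mice (red). Filled circles have an adjusted p under 0.05. The blue and red points of cold lie close together, while those of Cpt2 and Acsf3 lie apart in fasting.

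Cold combined with fasting gave values near those of cold alone. Against fed mice, 13 of the 31 genes were higher and 1 was lower in FF mice, where 11.6% of all genes were higher and 8.93% lower. In BKO mice 15 were higher and 1 lower, where 10.04% of all genes were higher and 8.93% lower. Acsl5 was at 494, 481 and 509.9 FPKM in the FF and at 517, 489 and 484 FPKM in the BKO libraries. Cpt2 was at 458, 420.4 and 398 FPKM and 425, 439 and 463 FPKM. The largest rises in FF mice were Acsl5 at 1.17 ± 0.22 (SE; adjusted p = 0.000744), Acsf2 at 0.80 ± 0.12 (SE; adjusted p = 7.91e-05) and Cpt2 at 0.74 ± 0.088 (SE; adjusted p = 4.88e-06). The others were Crat, Acadvl, Acads, Acad9, Acad11, Hadha, Hadhb, Decr1, Etfdh and Acsf3, at 0.32 to 0.68. Acad10 was again the lower gene in both genotypes, with -0.36 ± 0.074 (SE; adjusted p = 0.00153) in FF and -0.33 ± 0.074 (SE; adjusted p = 0.00347) in BKO mice. All 13 genes higher in FF mice were also called higher in BKO mice, which added Acadl and Echs1. The BKO call of Acadl ended without any 1 of 15 libraries, that of Echs1 without any 1 of 3, and those of Crat and Acad9 without any 1 of 4 each, with adjusted p up to 0.149, and the FF call of Acad9 without any 1 of 3, with adjusted p up to 0.0876.

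All cold plus fasting libraries of FF mice are numbered 15 to 32, whereas 2 of the 3 fed ones are numbered 1 to 8. With the library block as a covariate 11 genes were higher and 0 lower in FF mice, where 6.43% of all genes were called, and the FF calls of Acad10, Acads and Acad9 ended. With quantile normalization the counts were 13 higher and 3 lower in FF mice, where 22.2% of all genes were called, and 10 higher and 3 lower in BKO mice, where 17.7% were.

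Set directly against cold alone, cold plus fasting called 0 of the 31 genes in either genotype by limma, with 0.0% of all genes called in FF and 0.00787% in BKO mice. At an unadjusted p under 0.05 there were 0 members in FF mice, against 377 of 12702 genes tested. In BKO mice there were 2 members, against 1110 of 12704 genes. The log2 differences of the members ranged from -0.19 to 0.15 in FF and from -0.32 to 0.27 in BKO mice, with standard errors of 0.061 to 0.21. Acsl5, for example, was at 481 to 509.9 FPKM in cold plus fasting in FF mice, whereas its fasted FF values at room temperature were 68.3, 67.6 and 34.2 FPKM. Set against fasting at room temperature, cold plus fasting had 19 genes higher and 2 lower in FF mice, where 26.05% of all genes were higher and 25.9% lower. In BKO mice 13 were higher and 6 lower, where 22.9% of all genes were higher and 22.2% lower. The same 13 were higher in both genotypes, namely Acsl5, Acsf3, Cpt2, Acsl3, Hadha, Acsf2, Acad11, Acad9, Decr1, Etfdh, Acads, Hadhb and Acadvl. Acsl5 led at 3.17 ± 0.22 (SE; adjusted p = 2.99e-10) and 3.72 ± 0.22 (SE; adjusted p = 5.69e-11). Hsd17b10 was lower in both, at -1.01 ± 0.14 (SE; adjusted p = 3.94e-06) and -1.27 ± 0.14 (SE; adjusted p = 2.96e-07). In FF mice the 2 groups lie in different library number blocks, and with the block as a covariate 16 were higher and 1 lower, where 29.3% of all genes were called. With quantile normalization BKO mice had 10 higher and 9 lower, where 45.9% were called.

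In fasting at room temperature more of the 31 genes fell than rose in FF mice, and 17 were not called. Against fed mice, 3 were higher and 11 were lower, where 18.1% of all genes were higher and 19.4% lower, and the members' median log2 difference was -0.19. In BKO mice 4 were higher and 6 were lower, where 12.9% of all genes were higher and 14.6% lower, and the members' median was 0.06. Both BKO counts are near the shares of all genes. Eci2 and Hsd17b10 were higher in both genotypes. Acad9, Acsl3, Acsl5 and Acsf3 were lower in both. With quantile normalization BKO mice had 7 higher and 6 lower, where 31.2% of all genes were called.

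The fall was steepest for Acsl5. FF mice went from 223, 169 and 279 FPKM fed to 68.3, 67.6 and 34.2 FPKM fasted, and BKO mice from 241, 247 and 142 FPKM to 34.5, 41.5 and 34.9 FPKM. No fasted library reached any fed one. The log2 difference was -1.999 ± 0.22 (SE; adjusted p = 4.49e-07) in FF and -2.44 ± 0.22 (SE; adjusted p = 4.56e-08) in BKO mice. The share of Acsl5 in the 4 long-chain synthetases was 6.97% ± 2.44 in fasted FF and 3.41% ± 0.622 in fasted BKO libraries. Acsl3, a synthetase of the endoplasmic reticulum and lipid droplets, gave -1.05 ± 0.18 (SE; adjusted p = 0.000119) and -0.89 ± 0.18 (SE; adjusted p = 0.00095).

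Acsl1 was the only long-chain synthetase of the 4 that rose in a fasting comparison, and it did so in BKO mice. Fasted BKO libraries had 795, 1233 and 1153 FPKM against 644, 704 and 618 FPKM fed, without overlap, a log2 difference of 0.67 ± 0.17 (SE; adjusted p = 0.00498). Fasted FF libraries had 619, 1092 and 591 FPKM against 638, 612 and 668 FPKM fed. Here 1 fasted library was above all fed ones, 1 within their range and 1 below it, and the log2 difference of 0.20 ± 0.17 was not called. The difference between the genotypes' responses did not pass the test, at 0.47 ± 0.24 (SE; adjusted p = 0.466).

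Of the carnitine shuttle genes, Cpt2 fell in FF mice, from 248, 248 and 268 FPKM to 161, 147 and 131 FPKM, with -0.80 ± 0.088 (SE; adjusted p = 4.07e-07). In BKO mice it went from 329, 276 and 273 FPKM to 223, 257 and 281 FPKM, values that overlap, and -0.21 ± 0.088 was not called. Cpt1b rose in BKO mice, from 353, 419.9 and 467 FPKM to 512, 573 and 655 FPKM without overlap, with 0.49 ± 0.11 (SE; adjusted p = 0.00135). In FF mice it was at 368, 393 and 386 FPKM fed and at 422, 384 and 334 FPKM fasted, a difference of -0.01 ± 0.11. Slc22a5 rose in FF mice by 0.53 ± 0.15 (SE; adjusted p = 0.00967), from 29.1, 34.8 and 24.3 FPKM to 51.5, 30.5 and 48.7 FPKM, ranges that overlap. That call ended without FF fed replicate 3, FF fasted replicate 1 or FF fasted replicate 3, with adjusted p up to 0.0683.

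Hsd17b10, a matrix dehydrogenase that acts on short branched acyl-CoAs and is also a subunit of mitochondrial RNase P, rose most. FF mice had 176, 202 and 185 FPKM fed and 336, 299.6 and 374 FPKM fasted. BKO mice had 121, 134 and 154 FPKM fed and 297, 333 and 407 FPKM fasted. Every fasted library of either genotype was above every fed one. The log2 differences were 0.83 ± 0.14 (SE; adjusted p = 7.39e-05) and 1.33 ± 0.14 (SE; adjusted p = 3.57e-07). Eci2, an enoyl-CoA isomerase, rose by 0.23 ± 0.076 (SE; adjusted p = 0.0214) and 0.35 ± 0.076 (SE; adjusted p = 0.00145), and the FF call ended without FF fed replicate 1, FF fed replicate 3 or FF fasted replicate 3, with adjusted p up to 0.0932.

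The falls of the other steps in FF mice were smaller. Hadha went from 555, 529.7 and 553 FPKM to 444, 348 and 359 FPKM, with -0.52 ± 0.081 (SE; adjusted p = 3.37e-05), and Hadhb was not called. Acad9, a dehydrogenase that also serves complex I assembly, gave -0.58 ± 0.091 (SE; adjusted p = 3.59e-05) in FF and -0.45 ± 0.091 (SE; adjusted p = 0.00075) in BKO mice. Acad11 gave -0.33 ± 0.095 (SE; adjusted p = 0.00875) in FF mice. Acsf3 gave -1.11 ± 0.093 (SE; adjusted p = 1.16e-08) in FF and -0.52 ± 0.093 (SE; adjusted p = 0.000199) in BKO mice. The other lower genes in FF mice were Acads, Acad12, Hadh and Acaa2, with log2 differences of -0.26 to -0.30. Each of these 4 calls ended without FF fasted replicate 2, with adjusted p up to 0.248 over all single libraries left out. Acsl4 and Acsf2 were lower in BKO mice, at -0.45 and -0.46 on the log2 scale. The Acsl4 call ended without any 1 of 6 libraries, with adjusted p up to 0.168, and the Acsf2 call without BKO fed replicate 1 (adjusted p = 0.0657). Within the libraries numbered 1 to 8, FF mice had 1 higher and 7 lower of the 31, where 24.8% of all genes were called in either direction.

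**Figure D3:**
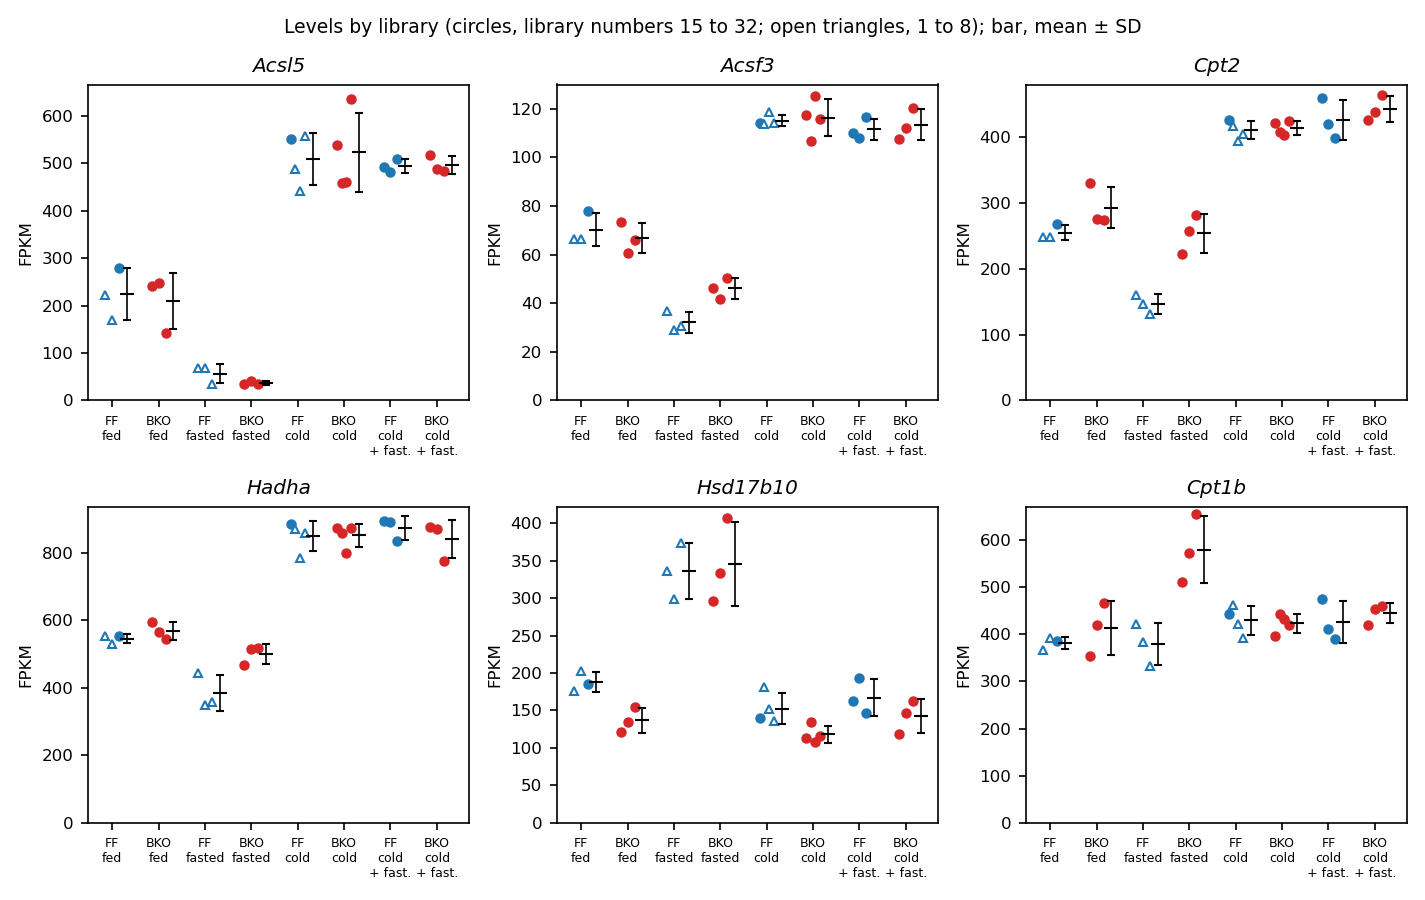
FPKM of 6 of the genes in each library, with FF in blue and BKO in red. Circles are libraries numbered 15 to 32, open triangles libraries numbered 1 to 8, and black bars the mean ± SD of 3 or 4 libraries. All fasted FF libraries are triangles, and for Cpt2 they lie at 131 to 161 FPKM against 223 to 281 FPKM in fasted BKO libraries.

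The direct test of the difference in fasting response between genotypes, BKO minus FF, called 2 of the 31 genes higher and 0 lower, where 0.299% of all genes were higher and 0.417% lower. These were Cpt2, at 0.59 ± 0.12 (SE; adjusted p = 0.0281), and Acsf3, at 0.58 ± 0.13 (SE; adjusted p = 0.042). For Cpt2 the FF fall and the smaller BKO difference are given above. For Acsf3, FF mice had 36.96, 28.98 and 30.5 FPKM fasted and BKO mice 46.1, 41.8 and 50.4 FPKM, without overlap. The Cpt2 call ended without FF fed replicate 1, FF fasted replicate 3, BKO fed replicates 2 or 3, or BKO fasted replicates 2 or 3, with adjusted p up to 0.105, and the Acsf3 call ended without any 1 of 15 libraries, with adjusted p up to 0.130. With the library block as a covariate the adjusted p was 0.0474 for Cpt2 and 0.0623 for Acsf3.

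Between the genotypes in fasting, 12 of the 31 genes were higher in BKO mice and 0 lower, where 4.53% of all genes were higher and 4.15% lower. The members' median log2 difference was 0.25, against 0.00 over all genes. By role these were 3 of 5 carnitine genes, 4 of 8 dehydrogenases, 2 of 3 auxiliary enzymes, 1 of 6 activation genes, 1 of 6 later-step genes and 1 of 3 flavoprotein genes. Because all fasted FF libraries are numbered 1 to 8 and all BKO libraries 15 to 32, the genotype and the library block cannot be told apart here. A fit with the block as a covariate, estimated from the fed and cold FF libraries, left 2 genes, Cpt2 and Acad11, and called 1.13% of all genes.

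Cpt2 gave 0.79 ± 0.088 (SE; adjusted p = 3.92e-06) in this comparison and 0.70 ± 0.13 (SE; adjusted p = 0.00499) with the covariate. Acad11 was at 95.5, 84.6 and 85.6 FPKM in FF and at 116, 153 and 136 FPKM in BKO libraries, with 0.59 ± 0.095 (SE; adjusted p = 0.000371), and 0.58 ± 0.14 (SE; adjusted p = 0.0465) with the covariate. Cpt1b was at 422, 384 and 334 FPKM in FF and 512, 573 and 655 FPKM in BKO libraries. Its groups did not overlap, and its difference of 0.61 ± 0.11 (SE; adjusted p = 0.000898) became 0.57 ± 0.15 (SE; adjusted p = 0.0779) with the covariate. Cpt1b is also abundant in skeletal muscle, of which 12 markers summed to 17.5 to 79.1 FPKM in fasted FF and 45.0 to 158 FPKM in fasted BKO libraries, and 1 of the 10 tested, Myl1, was higher in BKO. The part of this in the Cpt1b value was not tested.

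Of the flavoprotein genes, Etfdh was at 335, 291 and 257 FPKM in fasted FF and at 379, 449 and 433 FPKM in fasted BKO libraries, with 0.52 ± 0.093 (SE; adjusted p = 0.00115), and 0.51 ± 0.14 (SE; adjusted p = 0.0709) with the covariate. Crat gave 0.46 ± 0.085 (SE; adjusted p = 0.00142) and Hadha 0.39 ± 0.081 (SE; adjusted p = 0.00403). Eci1, the main mitochondrial enoyl-CoA isomerase, gave 0.41 ± 0.092 (SE; adjusted p = 0.00717). Acadvl, at 1081, 968 and 1087 FPKM in FF and 1219, 1207 and 1332 FPKM in BKO libraries, gave 0.26 ± 0.065 (SE; adjusted p = 0.0146). The remaining calls were Acsf3 at 0.51, Decr1 at 0.38, Acad12 at 0.34 and Acad10 at 0.25. Acadvl, Acad10, Acad12, Eci1 and Decr1 lost their calls without single libraries, with adjusted p up to 0.211, and without BKO fasted replicate 3 the count was 7. The share of all genes called without that library is not given here.

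**Figure D4:**
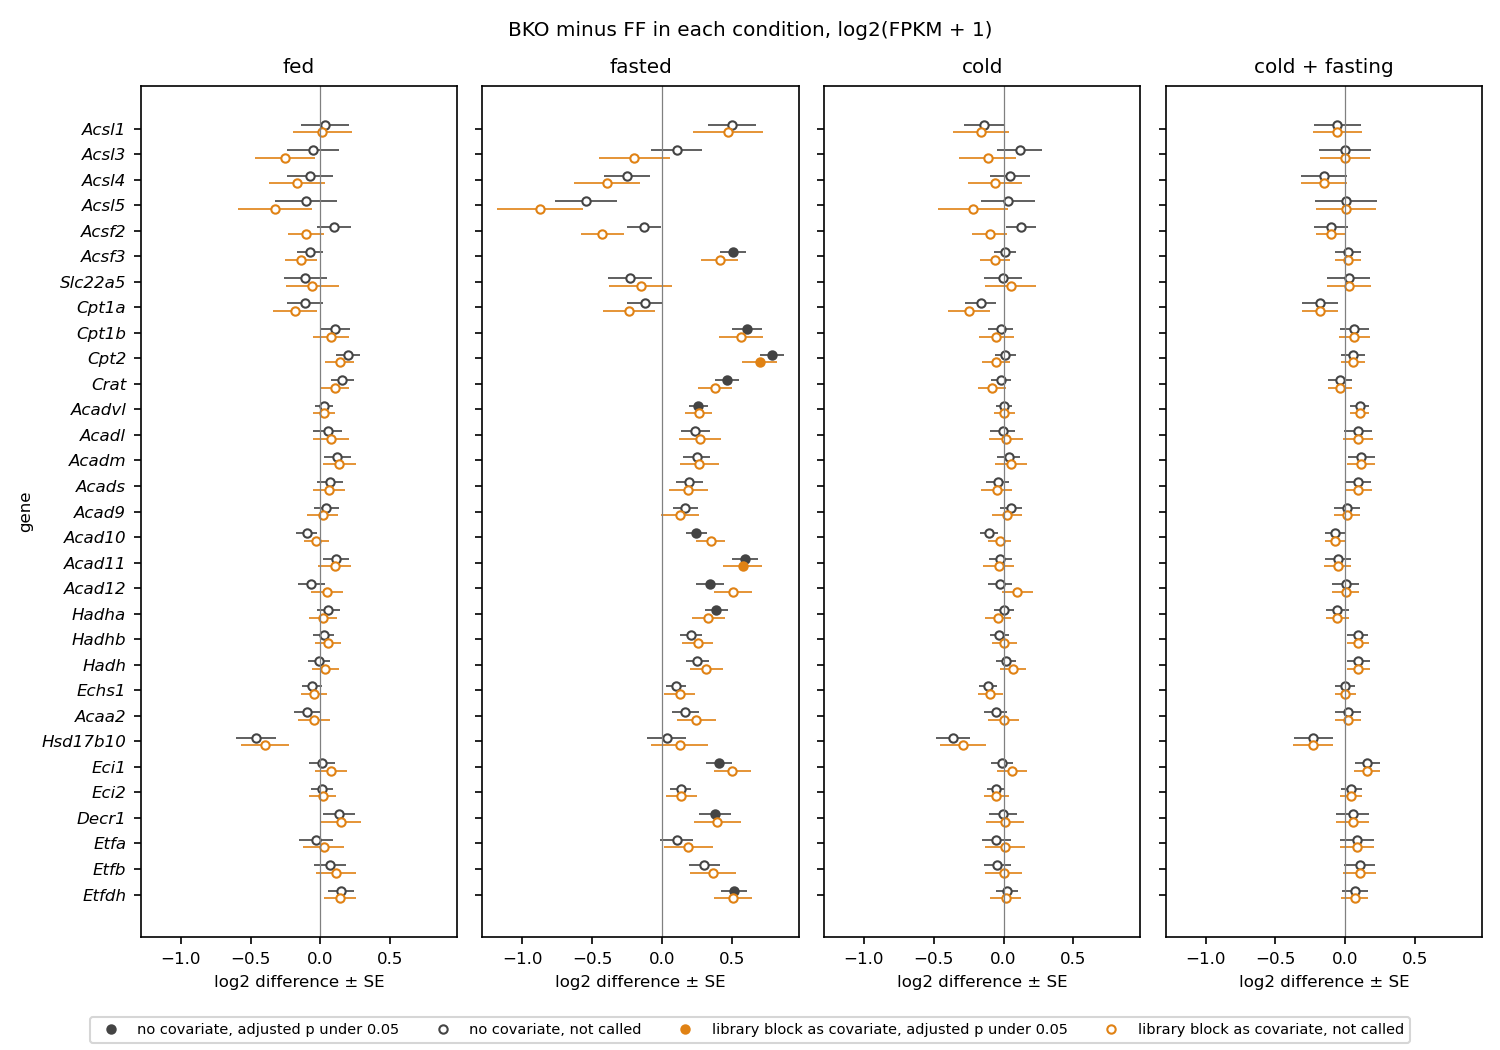
Log2 differences, BKO minus FF, of the 31 genes in the 4 conditions, with standard errors as bars. Grey points come from the fit without a covariate and orange points from the fit with the library block as covariate, and filled points have an adjusted p under 0.05. Only the fasted panel holds filled points, 12 grey and 2 orange.

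In the other conditions no member passed the test between genotypes. Of the 31, limma called 0 in fed mice, where 0.22% of all genes were called, 0 in cold, where 0.401% were called, and 0 in cold plus fasting, where 0.236% were called. At an unadjusted p under 0.05 there were 2, 1 and 0 members, against 742 of 12705, 478 of 12703 and 728 of 12703 genes tested. The log2 differences, BKO minus FF, ranged from -0.46 to 0.20 in fed mice, from -0.36 to 0.12 in cold and from -0.23 to 0.16 in cold plus fasting. The lowest value in each of these 3 was that of Hsd17b10. Averaged over the 4 conditions, 3 were higher, namely Cpt2, Cpt1b and Etfdh, and 1 was lower, where 1.26% of all genes were higher and 1.71% lower. This average includes fasting, where genotype and library block cannot be told apart. Cpt2, Cpt1b and Etfdh gave 0.79, 0.61 and 0.52 in fasting, and 0.26, 0.19 and 0.19 in the average. Hsd17b10 was the gene lower in the average, at -0.26 ± 0.068 (SE; adjusted p = 0.0419). It was at 176, 202 and 185 FPKM in fed FF and 121, 134 and 154 FPKM in fed BKO libraries, and at 140.0, 182, 152 and 136 FPKM and 114, 135, 108 and 115 FPKM in cold. Fed and cold values did not overlap between genotypes, and fasted values did. With the library block as a covariate 0 members were called in the average, where 0.464% of all genes were called. Of the 26 libraries left out singly, 17 ended the Hsd17b10 call, with adjusted p up to 0.0931, and 18 ended the Cpt1b call, with adjusted p up to 0.1004. The calls of Cpt1b and Hsd17b10 ended without a filter on low values, and those of Cpt1b and Etfdh with quantile normalization.

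Genes that work beside these steps were described from 3 further lists. Of 17 tested partners, such as fatty acid uptake, the carnitine-acylcarnitine carrier and malonyl-CoA turnover, 5 were higher and 1 lower in FF mice in cold, where 13.3% of all genes were higher and 10.3% lower. Mlycd, which degrades the CPT1 inhibitor malonyl-CoA, went from 58.2 ± 8.91 to 132 ± 10.7 FPKM, and the carrier Slc25a20 from 293 ± 2.59 to 432 ± 21.8 FPKM. In BKO mice 7 were higher and 1 lower, against 9.71% and 6.49% of all genes. In fasting, 3 were higher and 6 lower in FF mice, against 18.1% and 19.4% of all genes, and 5 were higher and 4 lower in BKO mice, against 12.9% and 14.6%. The 3 higher of 17 in FF mice are near the share of all genes. Acaca, which makes malonyl-CoA, fell in both, with log2 differences of -2.42 and -2.75. Between genotypes in fasting, 6 partners were higher in BKO mice and 0 lower, against 4.53% and 4.15% of all genes. The thioesterase Acot2 was among them, at 24.1 ± 6.72 FPKM in FF and 46.5 ± 8.42 FPKM in BKO mice. Genotype and library block cannot be told apart for these as well.

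Of 17 regulators, 3 were higher and 3 lower in FF mice in cold, and 2 were higher and 1 lower in BKO mice, which is near the shares of all genes given above for cold (13.3% and 10.3% in FF, 9.71% and 6.49% in BKO mice). In fasting, Ppargc1a, which encodes PGC-1alpha, rose in FF mice from 12.5 ± 3.80 to 33.4 ± 4.21 FPKM, while Esrra, which encodes ERRalpha, fell from 69.8 ± 14.5 to 44.5 ± 9.15 FPKM. Between genotypes in fasting, 2 of the 17, Rxrg and Esrra, were higher in BKO mice and 3, Esrrb, Ppargc1a and Ppargc1b, were lower. Of all genes, 4.53% were higher and 4.15% lower in this comparison. Genotype and library block cannot be told apart for these regulators either, and their relation to the 12 oxidation genes was not tested. Ppargc1a stood at 14.2 ± 5.10 FPKM in fasted BKO mice. Of 18 peroxisomal beta-oxidation genes, 3 were higher and 3 lower in BKO than in FF mice in fasting, where 4.53% of all genes were higher and 4.15% lower and the genotype cannot be told apart from the library block. Among the lower ones, Pecr, a peroxisomal enoyl-CoA reductase, was at 24.2 ± 1.18 FPKM in FF and 8.94 ± 0.241 FPKM in BKO mice. Pecr was also lower in BKO mice in fed, cold and cold plus fasting mice.

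Several of the genes share exons with others in GENCODE M21 on GRCm38, which affects how their FPKM can be read. All 31 were matched to that annotation by gene ID. Cpt1b (ENSMUSG00000078937, chr15:89416405-89425863, minus strand) shares 81.4% of its exonic bases with the readthrough gene Gm44502 on the same strand, which has no row in the table. Its upstream partner in that readthrough, Chkb, was at 91.7 ± 9.03 FPKM in fasted FF and 122 ± 16.5 FPKM in fasted BKO mice (mean ± SD, n = 3 each). Etfb shares 53.0% with Gm45233, which did not exceed 1.20 FPKM. Acadvl shares 42.9% with Dvl2 on the opposite strand, which was at 1.49 to 3.31 FPKM. Whether the libraries keep strand is not given in the sources used here.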

How the data were processed

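RNA of brown adipose tissue was sequenced in 26 libraries. Per the submitters' processing notes, the authors used STAR, Cufflinks and Cuffdiff with the mouse build mm10; versions are not given in the sources used here. The deposited values are FPKM per gene, and depth is unknown. Groups were taken from the labels, and replicates were numbered in accession order. An exact 0 where the smallest other value was at least 100 FPKM was treated as a failed estimate, which touched 33 genes and 0 of the 31 members.

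A gene was tested if 3 or more libraries reached 1 FPKM, on the scale log2(FPKM + 1), which understates folds of low genes. All 31 members passed this filter. limma 3.58.1 in R 4.3.3 fitted 8 group means over all 26 libraries, with an intensity trend in the empirical Bayes step. The 18 contrasts were adjusted by Benjamini-Hochberg within each contrast, with a threshold of 0.05. P-values are two-sided. They and the standard errors rest on a spread between libraries that is pooled over the 8 groups and moderated by that step. The script was tested on simulated data. The members and gene lists were chosen with earlier results of these data known. The plan was to name up to 12 called members with the largest differences in each comparison, and in some comparisons more were named. Alternatives were a pseudocount of 0.1, no filter, a mean of at least 5 FPKM, quantile normalization, array weights, the library block as covariate or as a restriction, and leaving out each library. Gene IDs were matched to GENCODE M21 without their version. The sequences are RefSeq's on GRCm38.p6.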

Additional observations from a re-analysis of the deposited data

Results flagged for a closer look

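In 6 of the 62 groups of 4 libraries examined (31 genes in the cold challenge of each genotype), the gap between an extreme library and the nearest other was above Dixon's 95% critical value. Chance flags about 1 in 20 groups. All 6 were in cold FF mice. Replicate 2 was the highest library for Acadvl at 1498 FPKM, Etfb at 1020 FPKM (1019.9) and Acsl1 at 768 FPKM. Replicate 3 was the lowest for Acad9 at 22.5 FPKM and Echs1 at 637 FPKM, and the highest for Acsf3 at 119 FPKM. Both libraries belong to those numbered 1 to 8.

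The fasting response differed between the genotypes by a test of that difference for Cpt2, by 0.59 on the log2 scale (limma, adjusted p = 0.0281), and for Acsf3, by 0.58 (adjusted p = 0.0420). Cpt2 was lower in 3 of 3 fasted FF libraries than in every fed one, and Acsf3 likewise. All fasted FF libraries are numbered 1 to 8 and all BKO libraries 15 to 32, and the genotype and the block cannot be told apart in the fasted groups.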

How the results depend on the processing

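No paired analysis was possible because the labels give each library a mouse number and no replicate number that groups share. Of 140 calls of single members in the 18 contrasts, 140 remained with a pseudocount of 0.1 and 140 with a mean of at least 5 FPKM, 129 without a filter on low values, 123 with quantile normalization, 117 with the library block as a covariate and 137 with array weights. Of those that could be computed, 62 of 87 remained in the libraries numbered 15 to 32 and 20 of 29 in those numbered 1 to 8. Without any 1 library 106 remained. The call of Hadh in cold plus fasting against fasting in FF mice reversed with quantile normalization, from 0.22 to -0.014 on the log2 scale.

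With array weights the number of members called became 1 between the fed genotypes and 11 in the genotype average. It became 25 for cold and 22 for cold plus fasting against fed FF mice, and 5 for the difference in fasting response. The share of all genes called with array weights is not given here, so these counts cannot be judged against it. With the block as a covariate the number of members called became 2 between the fasted genotypes, where 1.13% of all genes were called. It became 0 in the average, where 0.464% were called, and 1 for the difference in fasting response, where 0.559% were. The average gave 2 with quantile normalization, where 3.56% of all genes were called, and 2 without a filter. In the libraries numbered 15 to 32, fed FF and cold FF have 1 library each, which is assumed to vary like the other groups. The members' median log2 difference from fed FF there was 0.26 in cold and 0.26 in cold plus fasting. Over all genes the medians were 0.03 and 0.02. In the libraries numbered 1 to 8, fasting in FF mice gave 8 called members, where 24.8% of all genes were called. The cause of these shifts was not tested. Leaving out 1 library gave 7 to 14 for the fasted genotypes (12 with all), 2 to 5 for the average (4 with all) and 0 to 3 for the difference in fasting response (2 with all). The other contrasts stayed within 1.5 times of their count. The share of all genes called without a filter or with 1 library left out is not given here. Those counts cannot be judged against it. Calls near the threshold in groups of 3 libraries are the least certain, and no depth is known to weigh them.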

Other observations

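Peroxisomal beta-oxidation shortens very long and branched chains outside the mitochondria, and its genes did not share 1 direction in fasting. Of 18, 3 were higher and 4 lower in FF mice, where 18.1% of all genes were higher and 19.4% lower, so both counts are near the shares of all genes. In BKO mice 5 were higher and 5 lower, where 12.9% of all genes were higher and 14.6% lower. Slc27a2, a very long-chain acyl-CoA synthetase, rose in both genotypes, by 0.86 ± 0.20 (SE; limma adjusted p = 0.0020) in FF and by 1.78 ± 0.20 (adjusted p = 9.1e-07) in BKO mice. Crot, which forms medium-chain acylcarnitines in peroxisomes, fell in both, with -0.54 ± 0.14 (adjusted p = 0.0041) and -0.50 ± 0.14 (adjusted p = 0.010).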
